A study of Mus musculus with 33 samples.

Results

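Cell cycle and DNA replication genes are described here in subcutaneous Myc-CaP tumours, which grow from a prostate cancer line of a MYC transgenic mouse. The module is a list of 46 gene symbols, chosen by name and matched exactly to the 48795 genes of the deposited expression table, and all 46 were found and passed the filter on low values. By role, 15 members serve DNA replication, 25 serve mitosis, and 6 are regulators that act before or between these phases. A cell prepares to copy its DNA by loading the MCM helicase onto replication origins and by raising nucleotide supply, steps whose genes are switched on by E2F transcription factors when the retinoblastoma family of repressors is phosphorylated by cyclin-dependent kinases. Genes for mitosis are transcribed later, in G2, under the MYBL2, FOXM1 and MuvB complexes, and are held off in resting cells by the DREAM complex of pocket proteins, E2F and MuvB. Because resting cells carry little of these transcripts, their levels in a tumour are widely read as a measure of how many of its cells are cycling.

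The study treated male FVB mice that carried Myc-CaP cells under the skin of both flanks, and it concerned the lipid kinase PIKfyve, autophagy and checkpoint blockade. The groups, each of 5 mice, were ESK981 (8 tumours), the combination of ESK981 with anti-PD-1 (8 tumours), anti-PD-1 (7 tumours) and vehicle (10 tumours). Mice received ESK981, a PIKfyve and multi-kinase inhibitor given by mouth, at 15 mg/kg on 5 days a week, and antibody at 200 µg each 3 times a week, for 3 weeks from a tumour volume of 50 mm3. The protocol in the labels gives vehicle as the control of ESK981 and an isotype antibody as the control of anti-PD-1, while the sample labels name only the active agents or vehicle. All tumours come from 1 cell line in a strain with an intact immune system, and their RNA includes that of host cells. Of the markers of a luminal prostate tumour cell, Krt8 (3.73 to 117 FPKM) and Hoxb13 (2.09 to 5.48 FPKM) were present in all 33 tumours, while Epcam reached no more than 0.203 FPKM. Tumours are named by group, mouse number and flank (ESK981 1R is the right flank of ESK981 mouse 1), and numbers pair nothing across groups. The mouse is the replicate, since 13 of 20 mice gave 2 tumours.

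Values are FPKM, fragments per kilobase of exon and per 1e+06 fragments (M), made by the authors. Depth was 18.1 to 32.4 M fragments per tumour in the ESK981 group, 17.8 to 24.8 M in the combination group, 11.3 to 24.2 M in the anti-PD-1 group and 9.90 to 18.4 M in the vehicle group. Of the vehicle libraries, 9 of 10 ran on a separate flow cell, so for them treatment and flow cell cannot be told apart; vehicle 5R and all 23 treated tumours shared the other flow cell. Libraries stood apart in composition. Vehicle 5R and anti-PD-1 4R were the shallowest libraries (9.90 and 11.3 M fragments) and had the highest mitochondrial signal, and combination 5R had the highest ribosomal-RNA-like signal (500377 FPKM in sum). Scaling by the median of ratios divided the FPKM of these 3 by 0.59, 0.69 and 0.65, so their low FPKM hold for most genes. ESK981 1R and 2R, which turn up throughout the results, did not stand apart in this way: their factors were 0.99 and 0.95, and ESK981 1R was the deepest library of all.

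The promoters of the members carry the sequence words by which these genes are sorted into replication and mitosis programmes, and 5 are shown to make the words visible. Windows of 300 bases, 250 before to 50 from the annotated start, were taken from RefSeq on GRCm38.p6 and matched 38 of the 46 members. Words were searched on both strands: the E2F words TTCCCGC and TTGGCGC, the cell cycle genes homology region (CHR) words TTTGAA and TTCGAA, the CCAAT box and the E-box CACGTG. Words may overlap each other. Mcm6 (chr1:128359656-128359955), Mcm3 (chr1:20820263-20820562), Mki67 (chr7:135716330-135716629), Cdk1 (chr10:69352863-69353162) and Ccnb2 (chr9:70421505-70421804) all lie on the minus strand, are printed 5′ to 3′ in the sense of the gene, and have every matched word in capitals.
Mcm6: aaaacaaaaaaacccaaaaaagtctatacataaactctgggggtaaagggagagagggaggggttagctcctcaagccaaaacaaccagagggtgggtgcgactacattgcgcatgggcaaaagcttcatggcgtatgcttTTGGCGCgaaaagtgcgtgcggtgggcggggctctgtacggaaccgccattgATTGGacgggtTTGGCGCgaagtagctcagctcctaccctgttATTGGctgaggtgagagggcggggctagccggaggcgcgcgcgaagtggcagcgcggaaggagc
Mcm3: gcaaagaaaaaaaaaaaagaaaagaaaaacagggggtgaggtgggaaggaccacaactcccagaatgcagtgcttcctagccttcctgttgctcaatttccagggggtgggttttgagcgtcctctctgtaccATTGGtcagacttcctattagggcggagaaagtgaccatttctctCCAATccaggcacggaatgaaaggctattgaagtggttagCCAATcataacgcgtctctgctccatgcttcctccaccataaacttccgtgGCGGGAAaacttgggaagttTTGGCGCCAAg
Mki67: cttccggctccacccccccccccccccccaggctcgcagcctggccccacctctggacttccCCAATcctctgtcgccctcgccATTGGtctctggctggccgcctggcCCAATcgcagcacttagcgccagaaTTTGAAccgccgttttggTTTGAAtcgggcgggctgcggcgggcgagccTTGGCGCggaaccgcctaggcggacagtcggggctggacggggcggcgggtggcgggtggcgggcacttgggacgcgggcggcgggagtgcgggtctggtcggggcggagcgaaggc
Cdk1: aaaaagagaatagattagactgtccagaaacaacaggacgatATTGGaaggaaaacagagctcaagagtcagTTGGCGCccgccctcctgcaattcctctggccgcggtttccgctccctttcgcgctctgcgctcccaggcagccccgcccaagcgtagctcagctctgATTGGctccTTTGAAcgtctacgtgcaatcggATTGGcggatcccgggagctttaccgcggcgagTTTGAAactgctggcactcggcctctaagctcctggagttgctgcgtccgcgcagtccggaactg
Ccnb2: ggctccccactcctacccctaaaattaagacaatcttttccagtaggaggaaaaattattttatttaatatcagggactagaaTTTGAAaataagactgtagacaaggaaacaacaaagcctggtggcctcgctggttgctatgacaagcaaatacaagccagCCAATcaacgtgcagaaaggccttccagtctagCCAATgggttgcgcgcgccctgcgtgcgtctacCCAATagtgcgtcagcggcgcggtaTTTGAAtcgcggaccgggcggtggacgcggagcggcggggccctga
In these windows Mcm6 held the word TTGGCGC at 109 and 46 bases before the start, and Mcm3 held 3 E2F words within 50 bases after it, 2 of which overlap. Ccnb2, by contrast, held TTTGAA and 3 CCAAT boxes and no E2F word, while Mki67 and Cdk1 held both kinds. Shares are of genes with a window, and a gene counts if any of its windows holds the word. Over the list, 17 of 21 mitosis members with a window (81.0%) and 3 of 13 replication members (23.1%) held a CHR word. The word was held by 16.3% of genes tested and 21.7% of all genes. E2F words ran the other way, in 3 of 21 mitosis members (14.3%) and 8 of 13 replication members (61.5%), against 14.1% of genes tested and 7.79% of all genes. A CCAAT box was in 90.5% of mitosis and 76.9% of replication members, against 42.9% of genes tested and 41.1% of all genes. The E-box bound by MYC was in 4.76% and 7.69%, against 11.9% and 8.09%. These are matches of letters in a fixed window and no evidence of binding in these tumours.

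The main feature of the module was a pair of ESK981 tumours, 1R and 2R, in which almost every member was low, beside 6 ESK981 tumours in which most members were as high as or higher than the vehicle median. Mki67, which encodes the nuclear protein Ki-67 that coats mitotic chromosomes and is the standard stain for cycling cells, stood at 2.80 and 2.70 FPKM in ESK981 1R and 2R (914 and 656 fragments). It stood at 26.5 FPKM in ESK981 1L, the other tumour of mouse 1, and at 25.9 to 36.1 FPKM over the remaining 5 ESK981 tumours. The lowest, median and highest were 12.8, 17.8 and 35.5 FPKM in combination tumours, 7.50, 23.1 and 27.4 FPKM in anti-PD-1 tumours, and 8.27, 17.6 and 26.2 FPKM in vehicle tumours. Thus 2 ESK981 tumours were below every other tumour, and the other 6 overlapped the upper part of the remaining groups. Against the median of the vehicle tumours, the members in ESK981 1R ranged from 8.97% (Aurkb) to 44.8% (Mcm7) with a median of 16.2%, and in ESK981 2R from 10.4% (Mybl2) to 48.2% (Mcm7) with a median of 17.3%. After scaling by the median of ratios the medians were 15.5% and 16.9%. ESK981 1R and 2R were the lowest pair of the 33 tumours for 40 of 46 members, which was so for 4.87% of all genes tested. These tumours are set out here as single values: they were picked out by these same genes, and no test was made of them. In bulk RNA, fewer cycling cells and less of each RNA per cell cannot be told apart.

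**Figure D1:**
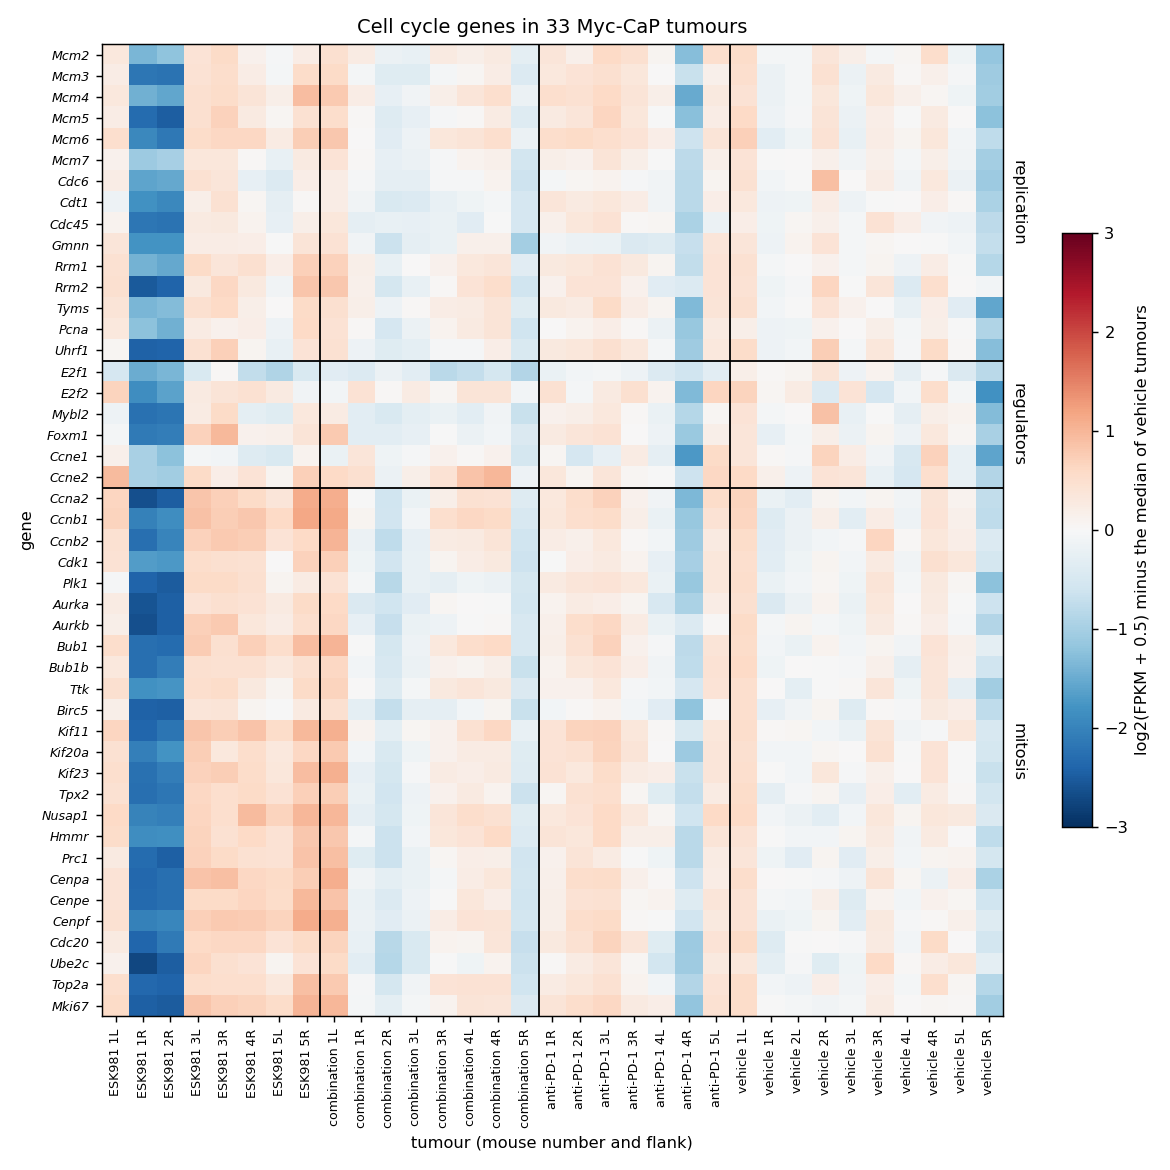
The 46 members (rows, by role) in 33 tumours (columns, by group), coloured by log2(FPKM + 0.5) minus the median of the 10 vehicle tumours. The columns of ESK981 1R and 2R are blue down nearly the whole list, with Mcm7 (44.8% and 48.2% of the vehicle median) among the palest, while anti-PD-1 4R and vehicle 5R are paler blue.

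Anti-PD-1 4R and vehicle 5R were also low, at medians of 50.3% and 53.8% of the vehicle median over the members. They are the shallow libraries with most mitochondrial signal, and after scaling by the median of ratios their medians were 70.5% and 88.2%. Combination 5R stood at 68.2% before and 101% after the same scaling. The low values of ESK981 1R and 2R, by contrast, moved by less than 1 percentage point. At the other end, combination 1L had the highest level of the 33 tumours for 18 members, ESK981 5R for 11 and ESK981 3R for 5.

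Of the members, 10 license or fire replication origins. Mcm2 to Mcm7 encode the 6 subunits of the replicative helicase, Cdc6 and Cdt1 load it, Gmnn encodes geminin, which inhibits CDT1 to prevent a second round of licensing, and Cdc45 activates the helicase. Mcm6 stood at 2.66 and 2.23 FPKM in ESK981 1R and 2R and at 13.8 to 19.8 FPKM in the other 6 ESK981 tumours. Its lowest, median and highest values were 9.02, 13.2 and 20.6 FPKM in combination tumours, 7.35, 15.5 and 17.4 FPKM in anti-PD-1 tumours and 6.65, 11.6 and 19.2 FPKM in vehicle tumours. Its mean over mice was 12.9 ± 6.86 FPKM for ESK981, 12.8 ± 3.26 for the combination, 15.2 ± 2.83 for anti-PD-1 and 12.3 ± 2.15 for vehicle (SD, n = 5 mice each). The ESK981 mice thus spread more widely than any other group. Mcm7 was the least low of all members in the pair. It had 6.04 and 6.50 FPKM in ESK981 1R and 2R, beside 6.39 FPKM in vehicle 5R and 7.65 FPKM in anti-PD-1 4R, and Mcm2 had 1.44 and 1.68 FPKM, beside 1.74 and 1.56 FPKM in those 2 libraries. The FPKM of vehicle 5R and anti-PD-1 4R, unscaled here, were low for most genes.

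Another 5 members supply nucleotides or act at the fork. Rrm1 and Rrm2 encode the large and small subunits of ribonucleotide reductase, which makes deoxyribonucleotides, Tyms encodes thymidylate synthase, Pcna the sliding clamp of DNA polymerases, and Uhrf1 a factor that carries DNA methylation over to the new strand. Rrm2 had the highest level of all members when averaged over the 4 groups (29.0 FPKM). It stood at 4.33 and 4.73 FPKM in ESK981 1R and 2R and at 25.1 to 48.8 FPKM in the other 6 ESK981 tumours. The lowest, median and highest values were 17.6, 28.9 and 47.9 FPKM in combination tumours, 20.4, 29.9 and 36.3 FPKM in anti-PD-1 tumours and 20.3, 27.1 and 42.7 FPKM in vehicle tumours. Unlike most members, Rrm2 was not low in vehicle 5R (25.7 FPKM). Pcna, which also serves DNA repair, kept 7.41 and 6.35 FPKM in ESK981 1R and 2R, beside 7.95 FPKM in anti-PD-1 4R. These values are unscaled, and the FPKM of anti-PD-1 4R were low for most genes.

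The 6 regulators differed among themselves. E2f1 and E2f2 encode activator E2F factors, Mybl2 and Foxm1 encode factors that drive the G2 and mitosis genes, and Ccne1 and Ccne2 encode the E-type cyclins that activate CDK2 at the start of S phase. E2f1 (chr2:154559407-154569892, minus strand, GENCODE M21 on GRCm38; its value covers all its exons) stood apart from the other members because it was lower than in vehicle across the ESK981 mice and not in the low pair alone. By mouse, E2f1 had 1.46, 0.918, 2.74, 1.72 and 1.84 FPKM in ESK981 mice 1 to 5, against 3.49, 3.88, 3.17, 2.84 and 1.92 FPKM in vehicle mice 1 to 5. Of the ESK981 mice 4 lay below the lowest vehicle mouse, and ESK981 mouse 3 overlapped the vehicle range. Combination mice had 1.51 to 2.77 FPKM and anti-PD-1 mice 2.12 to 2.98 FPKM. Vehicle 5R, the vehicle tumour on the flow cell of the treated tumours, had 1.60 FPKM, the lowest value among vehicle tumours. Ccne2, in contrast, reached 7.83 FPKM in ESK981 1L, 8.04 FPKM in combination 4R and 7.26 FPKM in combination 4L, above the vehicle maximum of 5.99 FPKM, while ESK981 1R and 2R had 1.69 and 1.59 FPKM. E2f2 had 0.726 and 0.966 FPKM in ESK981 1R and 2R, a level shared by vehicle 5R (0.765 FPKM), and 3.62 to 6.53 FPKM in the other 6 ESK981 tumours. Ccne1 was lower still in anti-PD-1 4R and vehicle 5R (0.299 and 0.379 FPKM) than in any ESK981 tumour (0.622 FPKM or more). The FPKM of anti-PD-1 4R and vehicle 5R, unscaled here, were low for most genes.

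The 25 mitosis members were low together. In unscaled FPKM, ESK981 1R and 2R were the lowest pair for 25 of 25, against 11 of 15 replication members and 4 of 6 regulators. For Mcm2, Mcm4, Mcm7, Tyms, E2f2 and Ccne1, vehicle 5R or anti-PD-1 4R came below ESK981 1R, 2R or both. The FPKM of those libraries were low for most genes, and no ranks were taken after scaling. These counts therefore do not tell a difference between the classes from the composition of those libraries. Cdk1 encodes the kinase that drives entry into mitosis, and Ccna2, Ccnb1 and Ccnb2 its cyclin partners. Cdk1 had 2.05 and 1.96 FPKM in ESK981 1R and 2R and 7.69 to 12.7 FPKM in the other 6 ESK981 tumours, against 5.10 to 11.1 FPKM in vehicle tumours. Ccna2, the most abundant of the 4 per length, had 1.56 and 1.80 FPKM in ESK981 1R and 2R and 15.98 to 26.9 FPKM in the other 6, against 7.17 to 19.7 FPKM in vehicle tumours. Among mitosis members Cdk1 was the least low in the pair, at 26.9% and 25.7% of the vehicle median. Ccnb1 showed the same split, with 1.13 and 1.32 FPKM in ESK981 1R and 2R and 9.50 to 14.4 FPKM in the other 6 ESK981 tumours. Vehicle tumours had 3.42 to 9.89 FPKM of it.

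The mitotic kinases and checkpoint genes (Plk1, Aurka, Aurkb, Bub1, Bub1b, Ttk and Birc5, whose product survivin anchors Aurora B at centromeres) stood at 8.97% (Aurkb) to 17.4% (Bub1b) of the vehicle median in ESK981 1R. Aurkb had 0.534 and 0.674 FPKM in ESK981 1R and 2R and 6.75 to 10.6 FPKM in the other 6 ESK981 tumours, against 2.98 to 9.11 FPKM in vehicle tumours. Bub1b, a spindle checkpoint component, had 1.90 and 2.23 FPKM in the pair and 13.7 to 15.4 FPKM in the other 6 ESK981 tumours, against 7.04 to 16.8 FPKM in vehicle tumours. Among spindle genes Kif11, the kinesin that pushes spindle poles apart, had 1.04 and 1.25 FPKM in ESK981 1R and 2R. Its values were 11.2 to 15.2 FPKM in the other 6 and 5.22 to 10.9 FPKM in vehicle tumours. The other 6 are those left after the pair was picked out by these same genes. Their place against vehicle tumours is therefore no separate result. Of the centromere genes, Cenpe, a kinetochore motor, had 1.04 and 1.12 FPKM in the pair, 9.76 to 14.8 FPKM in the other 6 and 4.58 to 9.86 FPKM in vehicle tumours. Cdc20 and Ube2c belong to the machinery of the anaphase-promoting ubiquitin ligase that ends mitosis. Cdc20 had 1.78 and 2.19 FPKM in ESK981 1R and 2R and 13.7 to 17.7 FPKM in the other 6, against 7.57 to 17.0 FPKM in vehicle tumours. Top2a, the topoisomerase that untangles sister chromatids, had 3.12 and 3.01 FPKM in the pair and 22.7 to 34.5 FPKM in the other 6, against 9.84 to 26.7 FPKM in vehicle tumours.

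**Figure D2:**
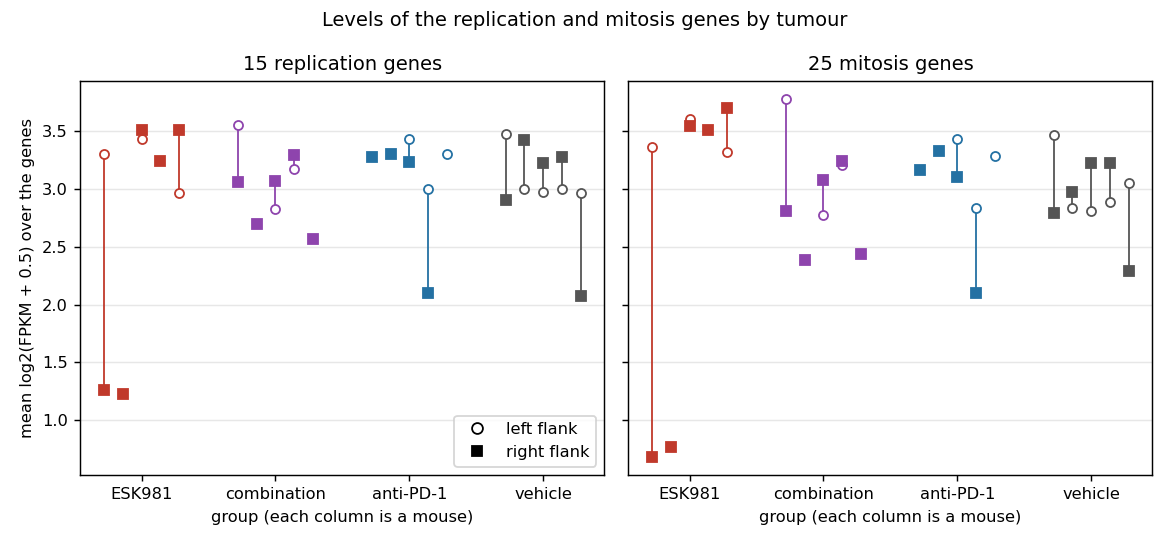
Mean log2(FPKM + 0.5) over the 15 replication members (left) and the 25 mitosis members (right) for each tumour. Each column is a mouse, open circles are left and filled squares right flanks, and lines join the tumours of a mouse. ESK981 1R and 2R lie near 1.26 and 1.23 for replication and 0.68 and 0.77 for mitosis, below all other tumours.

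Set against each other, the classes parted in the low pair. The mean log2 level of the replication members was 1.26 and 1.23 in ESK981 1R and 2R and 2.97 to 3.51 in the other 6 ESK981 tumours, and ranged over 2.57 to 3.55 in combination, 2.10 to 3.43 in anti-PD-1 and 2.07 to 3.48 in vehicle tumours. For mitosis members it was 0.68 and 0.77 in ESK981 1R and 2R and 3.32 to 3.70 in the other 6, and ranged over 2.39 to 3.78, 2.10 to 3.43 and 2.29 to 3.47 in combination, anti-PD-1 and vehicle tumours. The difference between the classes, mitosis minus replication, was -0.58 and -0.46 in ESK981 1R and 2R and 0.03 to 0.35 in the other 6 ESK981 tumours. It spanned -0.31 to 0.23 in combination, -0.17 to 0.03 in anti-PD-1 and -0.45 to 0.21 in vehicle tumours. Mitosis genes were thus the lower class in ESK981 1R and 2R, although vehicle 2R, with no low level of either class, came to -0.45. As shares of the vehicle median, the mitosis members had medians of 15.1% and 16.5% in ESK981 1R and 2R and the replication members 23.4% and 21.1%.

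**Figure D3:**
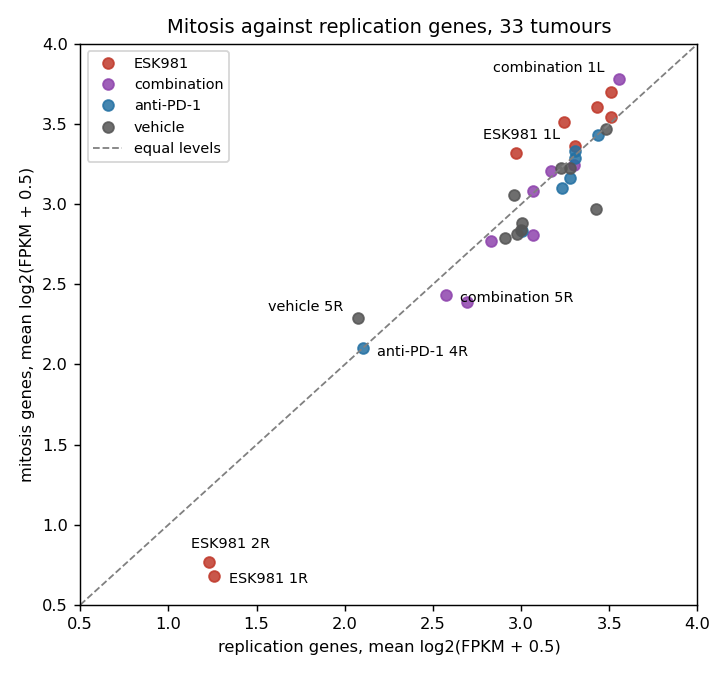
Mean log2(FPKM + 0.5) of the mitosis members (vertical axis) against the replication members (horizontal axis), 1 point per tumour, with the dashed line at equal levels. ESK981 1R and 2R lie alone at the lower left and under the line (mitosis minus replication -0.58 and -0.46), and anti-PD-1 4R and vehicle 5R lie between them and the other tumours.

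Tumours of the same mouse could differ widely. In ESK981 mouse 1 the left tumour exceeded the right one for 46 of 46 members, by 2.36 log2 units on average (2.04 over replication and 2.68 over mitosis members). Over the 13 mice with 2 tumours the median absolute difference was 0.36 log2 units, and it was 0.85 in vehicle mouse 5, 0.81 in anti-PD-1 mouse 4 and 0.70 in combination mouse 1. After scaling by the median of ratios it was 2.21 in ESK981 mouse 1 and 0.72 in combination mouse 1, but only 0.38 in vehicle mouse 5 and 0.30 in anti-PD-1 mouse 4, close to the median of 0.36 over the 13 mice on that scale. Replication and mitosis members differed in the same direction between flanks in 12 of the 13 mice. Averaging the flanks places ESK981 mouse 1 between the extremes, and ESK981 mouse 2 rests on its right tumour alone. The spread between mice was accordingly largest in the ESK981 group for 45 of 46 members, which was so for 14.6% of all genes tested. The median SD of the members' log2 values over mice was 1.20 for ESK981, 0.39 for the combination, 0.35 for anti-PD-1 and 0.24 for vehicle, and over all genes tested 0.21, 0.34, 0.24 and 0.26 for the same groups.

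Tested over mice, 1 of the 46 members differed between ESK981 and vehicle, a comparison in which treatment and flow cell cannot be told apart. The member was E2f1, lower by 0.71 ± 0.19 log2 units in ESK981 mice (limma adjusted p = 0.021). Its means were 1.74 ± 0.665 FPKM in ESK981 mice and 3.06 ± 0.743 FPKM in vehicle mice (SD, n = 5 each). All p-values come from limma on mouse means of log2(FPKM + 0.5), two-sided and adjusted by Benjamini-Hochberg over 15846 genes, and called under 0.05. The share of all genes called in this comparison was 14.4%, so 1 of 46 (2.17%) is below the background. In the direction of E2f1, 5.43% of all genes were called lower, and no member was among the 8.95% called higher. The estimates of the members were mostly negative, 44 of 46, with a median of -0.27 (-0.37 over replication, -0.26 over mitosis members and 0.11 over all genes tested), and of the 46 only E2f1 passed even an unadjusted p under 0.05. Their errors were large. Mki67 differed by -0.21 ± 0.45 log2 units (95% interval -1.14 to 0.72, adjusted p = 0.78), and Rrm2 by -0.59 ± 0.39 (95% interval -1.40 to 0.23, adjusted p = 0.31). Cdk1 differed by -0.25 ± 0.32 (95% interval -0.92 to 0.42, adjusted p = 0.62), and Ccnb1 by 0.01 ± 0.41 (95% interval -0.84 to 0.86, adjusted p = 0.99). Each of these intervals holds both decreases and increases, with upper ends of only 0.23 for Rrm2 and 0.42 for Cdk1. No member separated the ESK981 from the vehicle mice without overlap, against 15.5% of all genes.

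Leaving out ESK981 1R and 2R, a choice made by the outcome itself and shown only for what rests on them, turned the members' median to 0.44 (all genes 0.16) and the count to 7 of 46 members called (15.2%), all higher, where 8.86% of all genes were called and 5.55% called higher. Leaving out ESK981 mouse 2 alone already turned the members' median to 0.13, and the range over the 20 omissions of 1 mouse was -0.49 to 0.13. E2f1 was not called without ESK981 mouse 1, ESK981 mouse 2 or vehicle mouse 2. A term for flow cell, which rests on vehicle 5R alone, gave an E2f1 difference of -0.01 (adjusted p = 0.98) and 1 member called, higher (2.17%). In that fit 36.5% of all genes were called, with 35.0% of all genes called higher, and the members' median was 0.60, equal to the 0.60 of all genes.

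No member passed the test between the combination or anti-PD-1 and vehicle. For the combination 0 of 46 members were called, where 0.606% of all genes were (0.082% higher and 0.524% lower), with a median of -0.09 (all genes 0.03), which ran over -0.19 to 0.0012 with 1 mouse left out and was above 0 only without combination mouse 5. For anti-PD-1 0 of 46 were called, where 0.783% of all genes were, with a median of 0.16 (all genes 0.13). At an unadjusted p under 0.05 the counts were 1 and 0 members. The combination against vehicle had E2f1 at -0.43 ± 0.19 (95% interval -0.83 to -0.03, adjusted p = 0.36) and Mki67 at 0.06 ± 0.45 (95% interval -0.87 to 0.99, adjusted p = 0.97). Anti-PD-1 against vehicle had E2f1 at -0.15 ± 0.19 (95% interval -0.55 to 0.25, adjusted p = 0.75) and Mki67 at 0.30 ± 0.45 (95% interval -0.63 to 1.23, adjusted p = 0.79). The 3 comparisons share the vehicle mice and are not independent of each other.

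**Figure D4:**
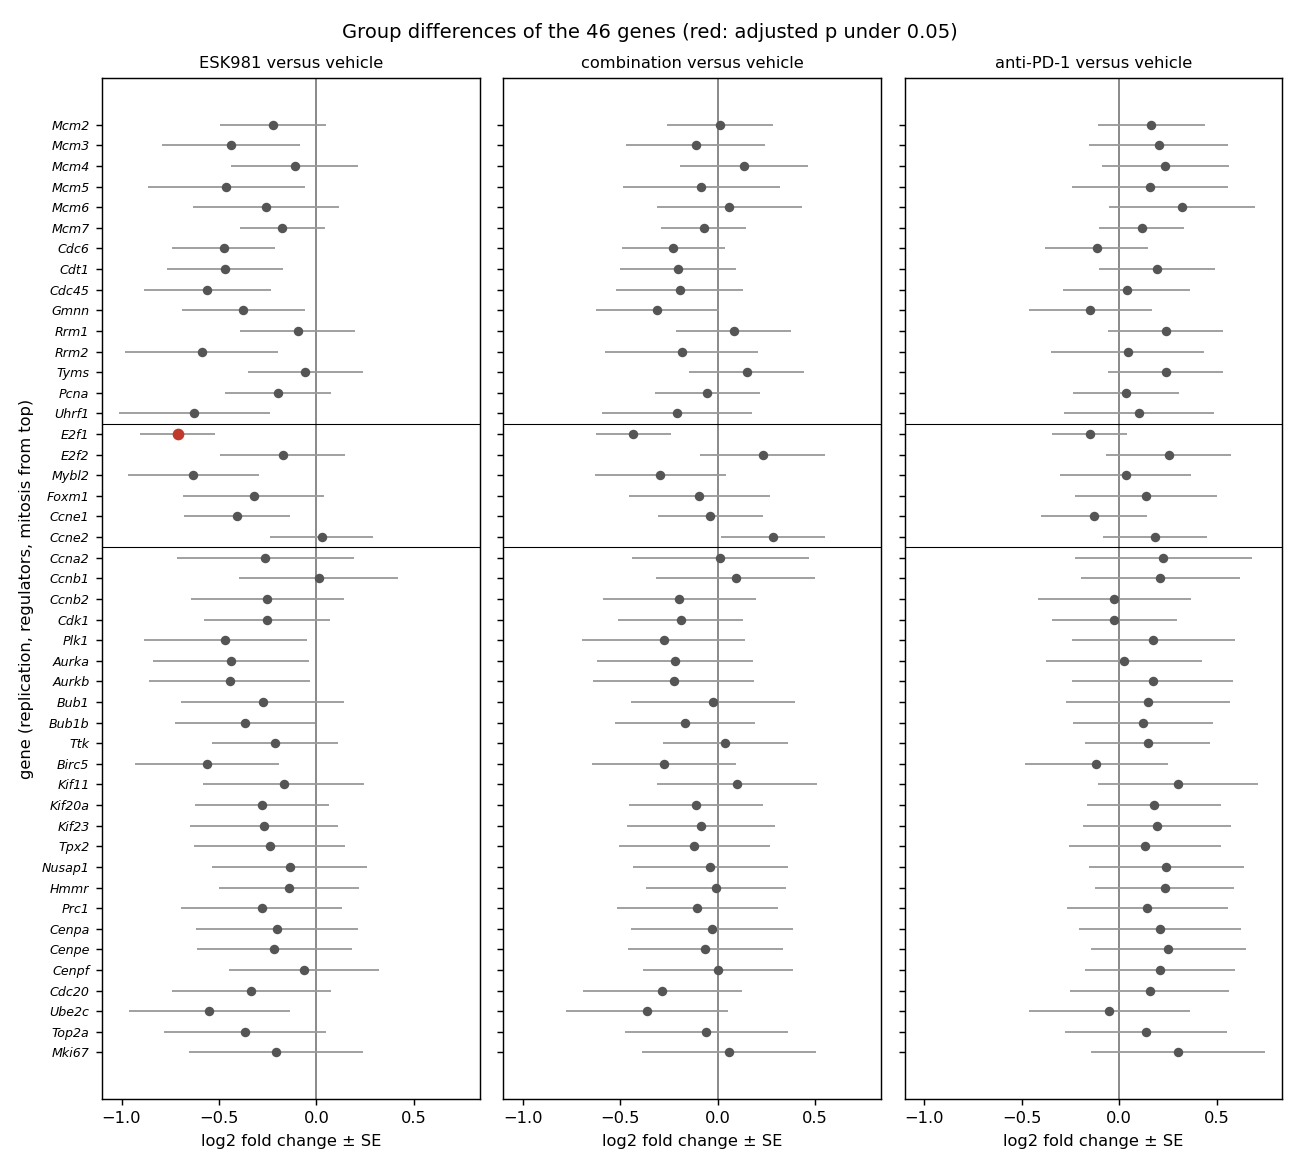
Log2 fold change with its SE for each member in ESK981, combination and anti-PD-1 tumours against vehicle, on mouse means (n = 5 per group), with members ordered by replication, regulators and mitosis. E2f1 in ESK981 tumours (-0.71, red) is the member with an adjusted p under 0.05, and most other error bars reach or approach 0.

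The 3 comparisons among the treated groups lie within 1 flow cell. The number that follows the flow cell in the library names nearly followed these groups, and the labels do not give its meaning. ESK981 and anti-PD-1 tumours shared no such number, so treatment and whatever it marks cannot be told apart between them. The combination against ESK981 had 0 of 46 members called (0% of all genes were), all 46 estimates above 0 and a median of 0.22 (all genes -0.09), with a smallest adjusted p of 0.73 and 0 members at an unadjusted p under 0.05. The combination against anti-PD-1 also had 0 members called (0% of all genes) and a median of -0.23 (all genes -0.09), with 0 at an unadjusted p under 0.05. ESK981 against anti-PD-1 had 0 members called (0.00631% of all genes), all 46 estimates below 0 and a median of -0.45 (all genes -0.01). Here 2 members passed an unadjusted p under 0.05, and E2f1, at -0.56 ± 0.19, had the smallest adjusted p among members (0.18). Leaving out 1 mouse in turn moved the members' median over -0.22 to 0.45 for the combination against ESK981 and over -0.68 to 0.01 for ESK981 against anti-PD-1, and both turned sign without ESK981 mouse 2. Without ESK981 1R and 2R the 2 medians were -0.55 and 0.28, so the direction of both comparisons rests on these tumours. The interaction, ESK981's effect beside anti-PD-1 minus its effect alone, had 0 members called (0.0252% of all genes), a median of 0.07 (all genes -0.22) and a smallest adjusted p of 0.39, with 0 at an unadjusted p under 0.05. It also uses the vehicle mice, so treatment and flow cell cannot be told apart in it, and its median ran over -0.34 to 0.28 with 1 mouse left out. With a term for flow cell 25.5% of all genes were called in the interaction, where 0 of 46 members were, with a members' median of -0.70 (all genes -0.64). In the combination group no tumour was as low as ESK981 1R or 2R, and whether low tumours arise less often with anti-PD-1 was not tested.

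Among 126 other genes of the pathway, 7 were called higher and 1 lower in ESK981 tumours relative to vehicle. That was 5.56% higher, where 8.95% of all genes were, and 0.794% lower, where 5.43% of all genes were. Both shares are below those of all genes, and no list was tested as a set. Of 7 CDK inhibitors 2 rose (28.6%, where 8.95% of all genes did). Cdkn1b, whose product p27 inhibits CDK2, had 17.3, 15.2, 16.1, 22.6 and 19.6 FPKM in ESK981 mice 1 to 5, against 12.8, 9.33, 11.9, 13.6 and 10.8 FPKM in vehicle mice 1 to 5, and rose by 0.61 ± 0.17 log2 units (adjusted p = 0.021). Cdkn2c, whose product p18 inhibits CDK4 and CDK6, had 11.4, 11.5, 11.6, 13.6 and 12.5 FPKM in ESK981 mice, against 8.85, 6.87, 8.28, 8.24 and 6.76 FPKM in vehicle mice, and rose by 0.64 ± 0.18 (adjusted p = 0.027). The groups did not overlap for either gene, as was so for 15.5% of all genes tested. ESK981 1R and 2R did not stand apart for them, with 15.6 and 15.2 FPKM of Cdkn1b, and 11.7 and 11.5 FPKM of Cdkn2c, inside the range of the other ESK981 tumours. Cdkn1a, whose product p21 is induced by p53, did not pass (9.68 ± 1.35 FPKM in ESK981 mice and 12.7 ± 2.20 in vehicle mice, -0.36 ± 0.14, adjusted p = 0.087).

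Of 8 G1 cyclins and kinases 1 fell (12.5%, where 5.43% of all genes did). Ccnd2, a D-type cyclin, stood at 0.491 to 0.775 FPKM in ESK981 mice and 0.991 to 1.99 FPKM in vehicle mice, without overlap, and fell by 0.76 ± 0.19 (adjusted p = 0.016). Ccnd1, the D-type cyclin of far higher level here, did not pass (25.6 ± 11.3 FPKM in ESK981 mice and 29.4 ± 6.57 in vehicle mice, -0.30 ± 0.28, adjusted p = 0.47), but ESK981 1R and 2R had 12.5 and 10.4 FPKM of it, below all other tumours (16.5 FPKM or more). Of 16 E2F, pocket protein and MuvB genes 3 rose (18.75%, where 8.95% of all genes did). Rb1, the retinoblastoma gene, rose by 0.45 ± 0.15 (adjusted p = 0.048), Rbl2, the pocket protein of the DREAM complex, by 0.42 ± 0.14 (adjusted p = 0.048), and Lin52, a MuvB subunit, by 0.60 ± 0.20 (adjusted p = 0.046). Rbl2 was highest of all 33 tumours in ESK981 1R and 2R (5.70 FPKM or more, against at most 4.80 FPKM elsewhere), where its relative Rbl1 was at 1.48 and 1.25 FPKM, against 4.50 to 7.27 FPKM in the other 6 ESK981 tumours. Of 40 genes of the pre-replication complex and replisome 2 rose (5.0%, where 8.95% of all genes did). These were the origin recognition subunits Orc4 (0.73 ± 0.19, limma adjusted p = 0.019) and Orc5 (0.45 ± 0.14, limma adjusted p = 0.042), which many resting cells also express. Of 55 other mitosis genes 0 passed, at a median of -0.21, with 2 at an unadjusted p under 0.05, and for 52 of the 55 ESK981 1R and 2R were again the lowest pair. In the other 6 comparisons 0 of the 126 genes passed limma's adjusted p. At an unadjusted p under 0.05 they numbered 6 for the combination and 3 for anti-PD-1 against vehicle, 4 for the combination against ESK981, 0 for the combination and 11 for ESK981 against anti-PD-1, and 6 for the interaction.

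**Figure D5:**
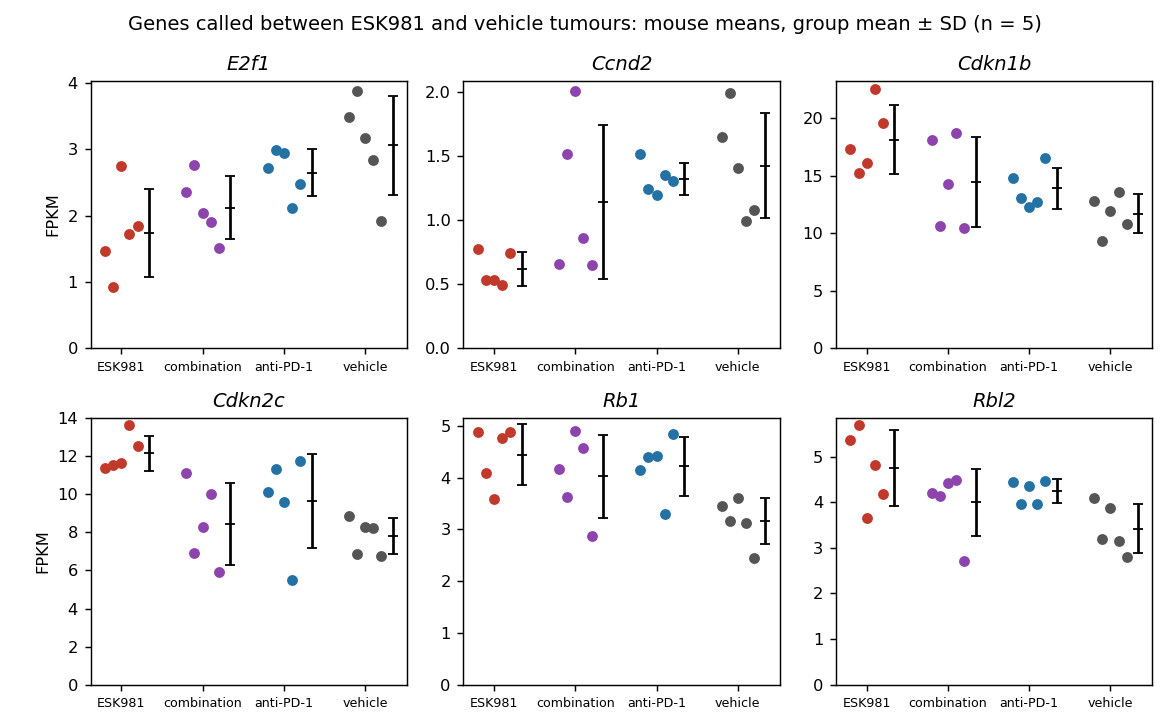
FPKM by mouse for the member E2f1 and 5 pathway genes called between ESK981 and vehicle, with the mean and SD of each group (n = 5 mice). E2f1 and Ccnd2 are lower in ESK981 mice (1.74 against 3.06 and 0.615 against 1.42 FPKM), and Cdkn1b, Cdkn2c, Rb1 and Rbl2 are higher.

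Orc4 was called under all 29 alternative settings, Ccnd2 under 27, Cdkn1b under 26, Cdkn2c and E2f1 under 24 each, but Orc5 under 17, Lin52 under 14, Rb1 under 12 and Rbl2 under 11. Leaving out 1 mouse in turn kept the call for Rb1 and for Rbl2 in 5 of 20 cases each, so these rest on the full set of mice. With a term for flow cell, Cdkn1b was at 0.97 (adjusted p = 0.012), Cdkn2c at 1.42 (adjusted p = 0.0034) and Ccnd2 at -0.77 (adjusted p = 0.096). That term rests on vehicle 5R alone. In its fit the median of all genes was 0.60, and 35.0% of all genes were called higher.

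Markers of other cells also differed between ESK981 and vehicle tumours. In ESK981 against vehicle tumours 5 of 9 T cell, 4 of 8 macrophage and 4 of 6 fibroblast markers tested were called lower. So was 1 of 3 neutrophil markers, where 5.43% of all genes were called lower. Called higher were 2 of 4 endothelial, 1 of 6 epithelial, 1 of 5 pericyte and 1 of 2 red blood cell markers. The 1 adipocyte marker tested was also called higher, where 8.95% of all genes were. Treatment and flow cell cannot be told apart in this comparison. The summed T cell markers ran over 1.44 to 4.76 FPKM in ESK981 tumours and 1.03 to 16.9 FPKM in vehicle tumours. In ESK981 1R and 2R Krt8, a luminal keratin, was at 18.7 and 14.5 FPKM, within the 3.73 to 117 FPKM of the other 31 tumours. The red blood cell markers summed to 100 and 53.8 FPKM in that pair and to no more than 36.5 FPKM elsewhere. The pericyte and smooth muscle sums of the pair (12.8 and 10.2 FPKM) ranked 15 and 20 of 33. The T cell sums of the pair (2.33 and 2.25 FPKM) ranked 25 and 27 of 33, and the muscle sum was 50.4 FPKM in ESK981 1R and 3.78 FPKM in 2R. Krt8 was named here after its values were seen, and the part of these markers, of depth and of flow cell in the levels of the cell cycle genes was not tested.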

How the data were processed

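RNA was sequenced from 33 tumours of 20 mice, 5 mice per group. The authors deposited 1 table of FPKM, made from reads aligned to mm10 with STAR and counted with featureCounts, per the submitters' processing notes. Tool versions, annotation and strandedness are not stated in these sources, so reads of overlapping or antisense genes are uncertain. Each value column belonged to a labelled tumour. Low FPKM were whole multiples of 1 fragment (100% within 0.01), which gave the depth per tumour. FPKM are not counts, so no count model was fitted.

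Each mouse's value was the mean of log2(FPKM + 0.5) over its 1 or 2 tumours. Genes with at least 0.5 FPKM in at least 5 tumours (15846) entered 1 limma fit (version 3.58.1, R 4.3.3) with a mean-variance trend over the 4 groups, tested on simulated data first. Calls were made at an adjusted p below 0.05. This scale understates the change of low genes. Tumours are labelled as separate, but nothing says that mice were handled independently, so p-values measure the spread between these mice.

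The members, the pathway lists, the markers and the tests were chosen with earlier results of these data known. Members were named by a rule: the most abundant member of each role (mean of the 4 group means), each member called, and Mki67, Mcm2, Rrm2, Ccnb1 and Cdk1 whatever their result. Of the pathway lists it took up to 4 called genes each, with Cdkn1a, Cdkn1b and Ccnd1. Mcm7, Mcm3, Pcna, Ccne1, Aurkb, Ccnb2, Top2a, Mybl2 and Rbl1 were added after their values were seen. Alternatives were other pseudocounts (0.1 and 1), no filter, scaling by the median of ratios or by protein-coding genes, single tumours with the mouse as random block, a flow cell term, and leaving out libraries or mice. Some marker genes are not reported here.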

Additional observations from a re-analysis of the deposited data

Results flagged for a closer look

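Over 5 mice per group, 112 groups of values were examined for a mouse far from the other 4 (Dixon's ratio above its 95% critical value), and 16 were flagged; chance flags about 1 in 20 groups, and members move together, so the flags are not separate events. All values are mouse means of log2(FPKM + 0.5), and all flagged mice were the lowest of their group. Anti-PD-1 mouse 4 was low for Mcm6 (3.39), Ccna2 (2.95), Cdc20 (2.84), Mki67 (3.69), Ccnb1 (2.06) and Cdkn2c (2.52), and for the mean over replication members (2.55), mitosis members (2.47) and all members (2.35). Its right tumour is the second shallowest library. Vehicle mouse 5, with the shallowest library, was low for Mcm2 (1.68) and Orc4 (1.41) and for the mean over replication members (2.52), regulators (1.27) and all members (2.44). Combination mouse 5 was low for Rbl2 (1.68). ESK981 mouse 2 was low for Ccne2 (1.06).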

How the results depend on the processing

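Estimates between ESK981 and vehicle depended on a few libraries. Members called numbered 1 (lower), and 0 to 1 with 1 mouse left out; with 3 libraries of unusual composition (vehicle 5R, combination 5R, anti-PD-1 4R) left out there were 2, both lower (4.35%, where 30.3% of all genes were called). Without ESK981 1R and 2R there were 7, all higher (15.2%, against 8.86% of all genes), and with a flow cell term, resting on vehicle 5R, 1, higher (2.17%, against 36.5% of all genes). That term gave 3 members called, higher, for the combination and 3 for anti-PD-1 (6.52% each, against 28.2% and 27.7% of all genes), where the fit without it gave 0; the cause was not tested. With it, the median log2 fold change of all genes between ESK981 and vehicle was itself 0.60, and 35.0% of all genes were called higher. Beside that shift, log2 fold changes of ESK981 against vehicle were 0.59 for Mcm6, 1.57 for E2f2, 0.60 for Ccna2, 0.35 for Bub1b, 0.50 for Kif11, 0.47 for Cenpe, 0.32 for Cdc20, 0.93 for Mki67, 0.97 for Mcm2, 0.45 for Cdk1 and 0.42 for Ccnd1, all reversed in sign. Without ESK981 1R and 2R they were also reversed, at 0.52 for Mcm6, 0.27 for Rrm2, 0.47 for E2f2, 0.70 for Ccna2, 0.39 for Bub1b, 0.72 for Kif11, 0.63 for Cenpe, 0.45 for Cdc20, 0.74 for Mki67, 0.24 for Mcm2, 0.39 for Cdk1 and 0.12 for Ccnd1. Ccne2, near 0, was at -0.11 under scaling by the median of ratios, -0.032 under protein-coding scaling and -0.040 without the 3 libraries. Ccnb1, also near 0, was at -0.13, -0.054 and -0.080 under the same settings and at -0.040 with a pseudocount of 0.1. Leaving out 1 mouse gave -0.47 to 0.22 for Mcm6, -0.38 to 0.16 for E2f2, -0.11 to 0.29 for Ccne2, -0.53 to 0.29 for Ccna2, -0.57 to 0.066 for Bub1b, -0.42 to 0.34 for Kif11, -0.47 to 0.29 for Cenpe, -0.56 to 0.13 for Cdc20, -0.46 to 0.36 for Mki67, -0.40 to 0.027 for Mcm2, -0.21 to 0.48 for Ccnb1 and -0.43 to 0.13 for Cdk1. No paired analysis was possible because mouse numbers are names within a group and pair nothing across groups.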
